A study of Homo sapiens with 24 samples.

Results

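The 10 genes described here are the core activators, repressors and output genes of the circadian clock: NR1D1, NR1D2, PER1, PER2, PER3, CRY1, CRY2, ARNTL, CLOCK and BHLHE40. They were chosen by name, and the choice was prompted by a strong metformin-associated increase of NR1D1 in these same libraries, so the metformin values of all 10 are given below as a description with no test. All 10 were among the 58302 genes of the expression table, and all 10 averaged 1 FPKM or more across the libraries, the level a gene needed to be tested, which 12607 genes reached. FPKM is a fragment count scaled to exon length and to the library's total, so it can be compared between genes of different length. The lowest mean belonged to CLOCK at 1.11 FPKM, just above that limit, and the next lowest was PER3.

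Polyadenylated RNA was sequenced from A549, a human lung adenocarcinoma line, in 4 groups of 3 libraries. The groups were cells carrying a GPD1 lentivirus with 10 mM metformin, GPD1 cells without metformin, cells carrying an empty-vector lentivirus with 10 mM metformin, and vector cells without metformin. GPD1 reduces dihydroxyacetone phosphate to glycerol-3-phosphate in the cytosol, and metformin is a biguanide used against diabetes that inhibits mitochondrial respiration. All 4 groups thus carried a lentivirus. The labels name neither the promoter that drove GPD1 nor whether a clone was picked, and they give no hour of harvest, no length of metformin exposure and no step that set the clocks of the cells in phase. Whether replicate libraries derive from different cultures is also unstated, so the p-values reflect only the variation among these libraries, and that variation could be technical. The study also holds libraries of 786-O kidney cancer cells, which were not used here.

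The clock of mammalian cells is a transcriptional feedback loop. The proteins of CLOCK and ARNTL (also called BMAL1) pair on E-box elements and activate the PER and CRY genes, whose proteins return to the nucleus and repress that pair. The nuclear receptors NR1D1 and NR1D2 (REV-ERBα and REV-ERBβ) are activated by the same pair and repress ARNTL through ROR response elements, and BHLHE40 (DEC1) is a further E-box repressor that is also induced by stress signals and hypoxia. DBP and TEF activate D-box elements, which NFIL3 represses. In an unsynchronised culture each cell keeps its own phase, so a level in bulk RNA is an average over phases, and fewer cells expressing a gene and less RNA per cell cannot be told apart.

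The promoter windows of 4 genes are shown to place these elements, chosen after their values were seen: NR1D1 and PER1 had the highest ratios of metformin to no drug, NR1D2 had the most negative log2 difference between GPD1 and vector cells, and BHLHE40 had the opposite sign there. All 10 genes matched RefSeq promoter windows (15 windows in all, ARNTL under its RefSeq symbol BMAL1) on build GRCh38.p14, each running from 250 bases before to 50 bases after an annotated transcript start. Capitals mark the E-box CACGTG, the ROR element core AGGTCA and the D-box TTATGTAA or TTACGTAA, each searched on both strands, with no overlap among the matches in these windows.
NR1D1 (chr17:40100540-40100839, minus strand): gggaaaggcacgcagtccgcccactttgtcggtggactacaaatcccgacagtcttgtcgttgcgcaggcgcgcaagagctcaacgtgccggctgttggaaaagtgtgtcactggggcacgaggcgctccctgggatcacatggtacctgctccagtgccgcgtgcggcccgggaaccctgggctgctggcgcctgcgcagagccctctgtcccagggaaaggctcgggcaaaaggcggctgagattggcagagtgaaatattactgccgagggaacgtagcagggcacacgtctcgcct
NR1D2, its second window (chr3:23945871-23946170, plus strand): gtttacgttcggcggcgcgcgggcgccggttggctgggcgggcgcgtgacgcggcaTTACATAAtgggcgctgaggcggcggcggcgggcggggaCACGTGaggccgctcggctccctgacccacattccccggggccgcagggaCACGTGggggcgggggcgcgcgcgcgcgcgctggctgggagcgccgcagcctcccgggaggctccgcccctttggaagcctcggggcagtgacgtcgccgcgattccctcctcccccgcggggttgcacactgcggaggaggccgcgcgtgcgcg
PER1 (chr17:8152355-8152654, minus strand): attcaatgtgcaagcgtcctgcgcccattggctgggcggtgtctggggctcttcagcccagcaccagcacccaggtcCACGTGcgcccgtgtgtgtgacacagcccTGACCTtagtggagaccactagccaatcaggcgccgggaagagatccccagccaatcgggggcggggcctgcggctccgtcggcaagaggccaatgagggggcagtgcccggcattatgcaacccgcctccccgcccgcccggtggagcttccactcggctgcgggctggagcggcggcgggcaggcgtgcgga
BHLHE40 (chr3:4979187-4979486, plus strand): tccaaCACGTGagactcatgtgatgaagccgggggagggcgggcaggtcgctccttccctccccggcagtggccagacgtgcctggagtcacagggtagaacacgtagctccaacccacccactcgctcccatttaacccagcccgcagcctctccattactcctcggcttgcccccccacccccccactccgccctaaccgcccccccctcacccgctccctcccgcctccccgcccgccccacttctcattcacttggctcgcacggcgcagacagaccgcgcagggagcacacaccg

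The NR1D1 window held none of the 3 elements, which says only that these letters are not in this stretch. The second NR1D2 window held E-boxes at -155 and -105 and a D-box at -194, counted with the start base as +1, while its first window held none of the 3 elements. The PER1 window held an E-box at -173 and a ROR element core at -144, and the BHLHE40 window held an E-box at -245. Of the 15 windows, 3 held an E-box, 4 held a ROR element core and 3 held a D-box. Of all 35116 RefSeq promoter windows, 7.26% held the E-box, 13.8% the ROR element core and 1.01% the D-box. No window of the 10 genes held the cyclic AMP element TGACGTCA or the ATF4 element TGATGCAA, which occurred in 1.85% and 0.866% of all windows. The GC box GGGCGG was present in 13 of the 15 windows, at least 1 for each of the 10 genes, and in 15786 of all 35116 windows. These matches describe sequence and show no binding.

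GPD1 itself averaged 13.5 ± 0.270 FPKM in GPD1 cells with metformin and 15.8 ± 0.855 FPKM in GPD1 cells without it, against 0.0538 ± 0.0251 and 0.0770 ± 0.0323 FPKM in vector cells with and without metformin (SD, n = 3 each), which matches the labels. The epithelial keratin KRT8 and its partner KRT18 were present in every library, while KRT19 and the lung lineage genes NKX2-1, SFTPB and SFTPC were at or near 0. Further epithelial genes differed between groups: CDH1 averaged 3.25 and 4.18 FPKM in GPD1 cells with and without metformin, against 2.56 and 9.26 FPKM in vector cells with and without it, and EPCAM averaged 1.23 and 0.717 FPKM in GPD1 cells, against 0.424 and 0.257 FPKM in vector cells. The part of these differences in the clock gene values was not tested. The depth inferred from the steps between low values was 13.3 to 18.0 M reads per library. The transcripts of the mitochondrial genome took 10.3% to 11.4% of the summed FPKM in GPD1 cells with metformin and 30.2% to 32.3% in GPD1 cells without it, against 13.7% to 14.9% in vector cells with metformin and 32.9% to 33.2% in vector cells without it. Because FPKM values share 1 total per library, 3 other scalings were also tried.

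With metformin, most of the 10 clock genes, the activator CLOCK among them, were lower in GPD1 cells than in vector cells. NR1D2, CRY1, CRY2, CLOCK, PER1, NR1D1 and PER3 fell by 1.38-fold to 3.06-fold and BHLHE40 rose 1.42-fold, each past the threshold of 0.05 in limma on log2(FPKM + 1) with Benjamini-Hochberg adjustment over all tested genes. Thus 7 of 10 were lower and 1 was higher, where 35.0% of all tested genes were lower and 25.0% were higher. NR1D1, chosen on libraries that this comparison shares, is among the 7 and enters the median that follows. CLOCK is also among the 7, though its means in both metformin-treated groups lay below 1 FPKM. The median log2 difference was -0.42 over the 10 genes and -0.05 over all tested genes. When the table was rescaled by upper-quartile factors, which put the all-gene median at 0.13, 6 of 10 were lower and 1 was higher, against 3092 lower and 5078 higher of all tested genes. The log2 differences then became -0.32 for NR1D1, -0.36 for PER1, -0.14 for PER3, -0.16 for CLOCK and 0.75 for BHLHE40. Median-ratio factors gave 7 lower and 1 higher against 3851 lower and 3939 higher of all genes.

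Without metformin, few of the 10 differed by the same test. NR1D2 and CLOCK fell and PER2 rose in GPD1 cells, so that 2 of 10 were lower against 11.3% of all tested genes and 1 of 10 was higher against 9.99% of all tested genes. These shares are near the background at this number of genes. The median log2 difference was 0.13 over the 10 genes and -0.01 over all.

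**Figure D1:**
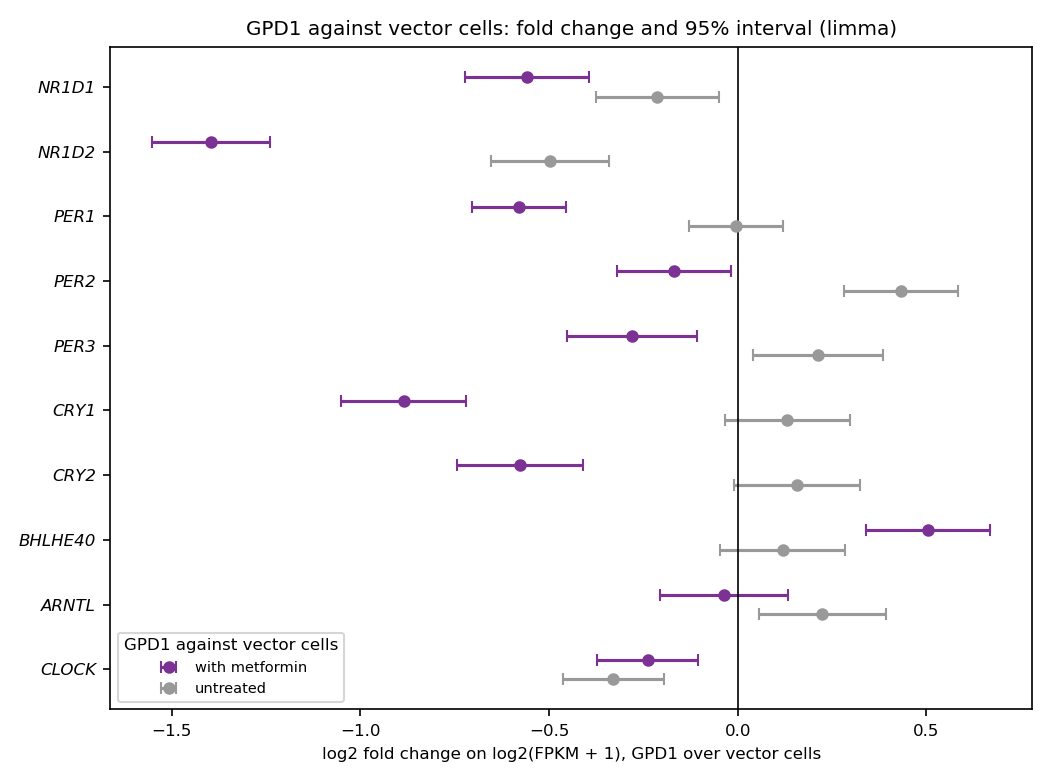
Log2 difference between GPD1 cells and vector cells for each clock gene, with metformin and without it, as points with 95% intervals from limma on log2(FPKM + 1) of 3 libraries per group. With metformin NR1D2 lies lowest at -1.40 and BHLHE40 highest at 0.50, while without metformin PER2 lies highest at 0.43 and NR1D2 lowest at -0.50.

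The metformin values divided the genes in another way. In vector cells the libraries with metformin all lay above those without it for 8 of the 10 genes (NR1D1, PER1, CRY2, BHLHE40, CRY1, NR1D2, PER2 and PER3), all below them for CLOCK, and overlapped them for ARNTL. In GPD1 cells they lay above for NR1D1, PER1, BHLHE40 and CRY2, below for NR1D2, PER3, CRY1, ARNTL and CLOCK, and overlapped for PER2. Since NR1D1's increase in these contrasts prompted the choice of the genes, no test is given for them and nothing is read from these counts. The share of all tested genes whose libraries did not overlap was not computed. By limma calls, a different measure, 31.3% of all tested genes were higher and 43.3% lower with metformin in vector cells. The calls in GPD1 cells were 26.1% higher and 48.0% lower. In GPD1 cells the log2 differences of NR1D2, CRY1, PER2, PER3 and ARNTL, all below 0 as deposited, lay above 0 with median-ratio and with upper-quartile factors. In vector cells that of ARNTL turned below 0 with totals that leave out mitochondrial genes. Among all genes median-ratio factors, upper-quartile factors and totals without mitochondrial genes gave 4966 higher and 4283 lower, 5804 and 3622, and 1768 and 8052 in GPD1 cells, against 3293 and 6056 as deposited. In vector cells all genes gave 5246 higher and 4179 lower, 5290 and 4125, and 2479 and 7345, against 3948 and 5463 as deposited.

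**Figure D2:**
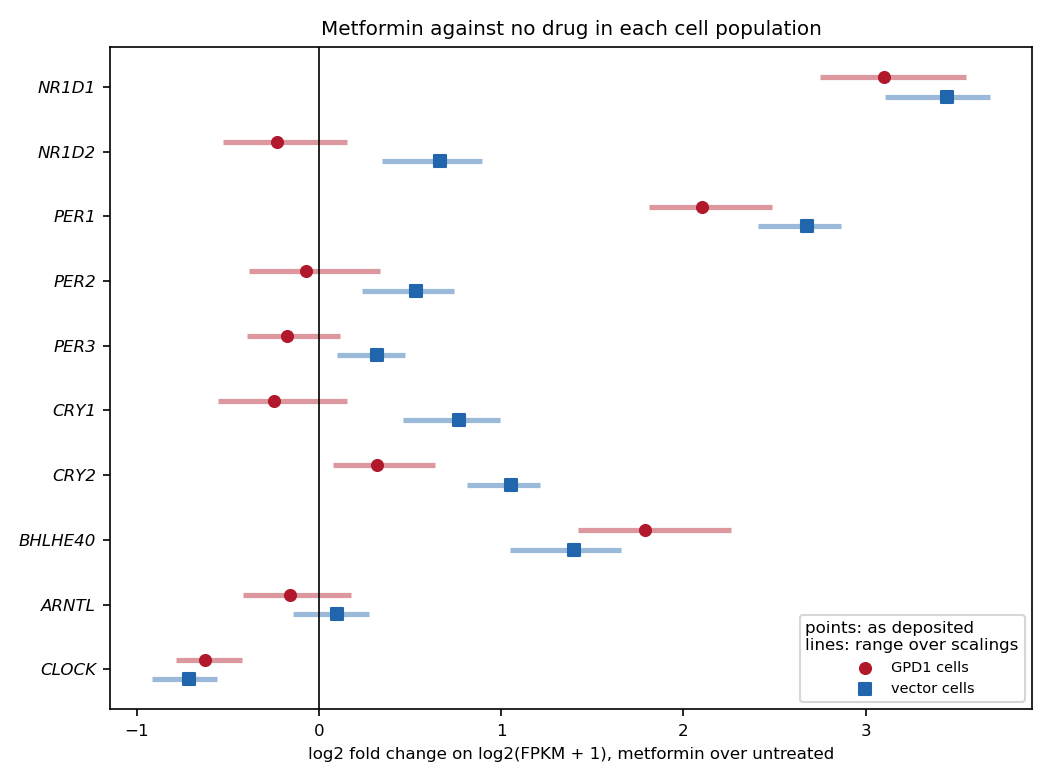
Log2 difference between metformin and no metformin for each clock gene in GPD1 cells and in vector cells, as points on the log2(FPKM + 1) scale, with lines that span the values under the 4 scalings (as deposited and 3 others). NR1D1 lies at 3.10 in GPD1 cells and 3.44 in vector cells, whereas NR1D2 lies at -0.23 in GPD1 cells and 0.67 in vector cells; the values describe genes chosen on this contrast.

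The metformin change itself was then compared between the cell populations, by the interaction of GPD1 and metformin, which is the change in GPD1 cells minus the change in vector cells. It shares its metformin-treated libraries with the preceding GPD1 comparison and is not a separate sample. Of the 9 genes other than NR1D1, the change was lower in GPD1 cells for NR1D2, PER1, PER2, PER3, CRY1 and CRY2 and higher for BHLHE40 by limma with Benjamini-Hochberg adjustment. That is 6 of 9 lower and 1 of 9 higher, where 26.8% of all tested genes were lower and 19.1% were higher. The median interaction over these 9 genes was -0.58, against -0.04 over all tested genes. Upper-quartile factors turned the split of all tested genes to 2488 lower and 3975 higher, and median-ratio factors to 3037 and 2940. The 9 genes gave 6 lower and 1 higher with either set of factors, as they did on the values as deposited, with medians of -0.50 and -0.37 under median-ratio and upper-quartile factors.

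**Figure D3:**
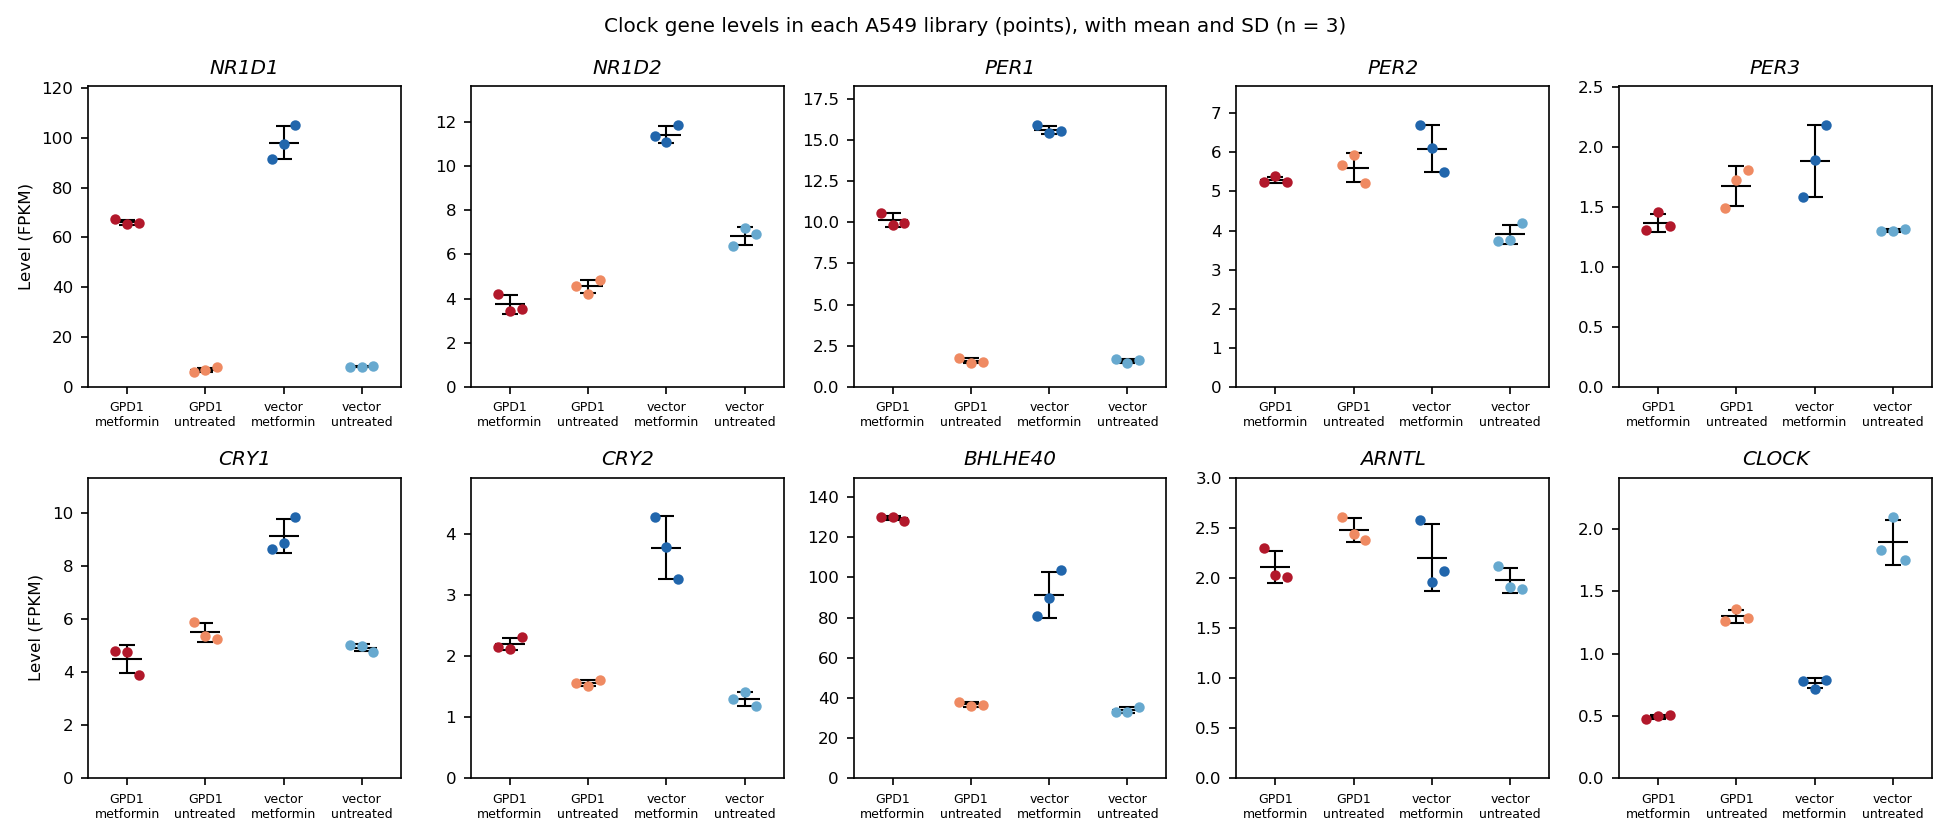
Level of each of the 10 clock genes in FPKM in every A549 library, with the mean and SD of 3 libraries per group. NR1D1 and PER1 stand high in both metformin-treated groups, NR1D2, CRY1 and CRY2 stand highest in vector cells with metformin, and CLOCK stands low in both metformin-treated groups.

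NR1D1 (ENSG00000126368, chr17:40092787-40100725, minus strand) encodes the haem-binding repressor REV-ERBα. It had 67.3, 65.5 and 65.7 FPKM in GPD1 cells with metformin, against 6.09, 6.72 and 7.80 FPKM in GPD1 cells without it. In vector cells it had 91.6, 97.5 and 105 FPKM with metformin, against 7.94, 7.92 and 8.39 FPKM without it. Every metformin library stood far above every library without the drug, and the ratios of the group means were 9.63 in GPD1 cells and 12.1 in vector cells. With metformin the GPD1 libraries all lay below the vector libraries, with means of 66.2 ± 0.993 FPKM in GPD1 cells and 98.1 ± 6.75 FPKM in vector cells (SD, n = 3 each), a log2 difference of -0.56 (SE 0.07, 95% interval -0.72 to -0.39, limma adjusted p = 7.2e-05). Without metformin the difference was -0.21 (95% interval -0.38 to -0.05, limma adjusted p = 0.0667). Leaving out replicate 3 of the untreated GPD1 group, its highest value, brought the adjusted p to 0.0106, and totals that leave out mitochondrial genes brought it to 0.0319. Over all alternatives tried, this limma adjusted p ran from 0.0106 to 0.211. NR1D1 was chosen on its metformin increase in these same GPD1 and vector libraries. The p-values of both its GPD1 comparisons are therefore not independent of that choice. The interaction for NR1D1 was -0.35 (SE 0.10), or -0.13 with upper-quartile factors, given as a description.

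Exons of NR1D1 overlap exons of THRA, the thyroid hormone receptor α gene on the opposite strand. The 2 genes share 263 exon bases, which are 9.49% of the exon length of NR1D1, and no source states that reads were counted by strand, so reads in that stretch cannot be assigned. THRA had 12.2, 8.94 and 12.3 FPKM in GPD1 cells with metformin and 10.6, 10.2 and 11.2 FPKM in GPD1 cells without it. It had 19.4, 18.6 and 19.7 FPKM in vector cells with metformin and 8.94, 9.44 and 9.23 FPKM in vector cells without it. THRA was thus higher with metformin in vector cells (log2 difference 0.99) and its values overlapped in GPD1 cells (0.04). The shared stretch is 3.78% of the exon length of THRA. Reads of NR1D1, chosen for its metformin increase, may enter the THRA values, so these are given as a description with no test. The part that shared reads play in either gene's value was not tested.

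NR1D2 (ENSG00000174738, chr3:23945260-23980618, plus strand) encodes REV-ERBβ, the close relative of REV-ERBα, and it did not follow NR1D1. It had 4.23, 3.45 and 3.53 FPKM in GPD1 cells with metformin, against 4.59, 4.23 and 4.84 FPKM in GPD1 cells without it. Vector cells had 11.3, 11.1 and 11.9 FPKM with metformin, against 6.39, 7.20 and 6.91 FPKM without it. The metformin groups lay on opposite sides of their untreated groups in the 2 cell populations, far apart in vector cells and nearly touching in GPD1 cells. In GPD1 cells with metformin NR1D2 fell 3.06-fold below vector cells with metformin (log2 difference -1.40, SE 0.07, limma adjusted p = 6.2e-08). Without metformin it fell 1.50-fold (log2 difference -0.50, limma adjusted p = 0.00058), and the interaction was -0.90 (SE 0.10, limma adjusted p = 4.5e-05). The slightly lower level with metformin in GPD1 cells, -0.23 on the log2 scale, turned to 0.038 with median-ratio factors and 0.15 with upper-quartile factors. The ratio of NR1D1 to NR1D2 within a library does not depend on scaling. It averaged 17.8 ± 1.66 in GPD1 cells with metformin and 1.51 ± 0.158 in GPD1 cells without it, and 8.58 ± 0.437 in vector cells with metformin and 1.19 ± 0.0759 in vector cells without it (SD, n = 3 each).

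PER1 (ENSG00000179094, chr17:8140472-8156506, minus strand) encodes a period protein that represses CLOCK and ARNTL and is also an immediate target of cyclic AMP and glucocorticoid signals. It had 10.6, 9.83 and 9.98 FPKM in GPD1 cells with metformin, against 1.77, 1.47 and 1.53 FPKM in GPD1 cells without it. Levels in vector cells were 15.9, 15.5 and 15.5 FPKM with metformin, against 1.71, 1.47 and 1.60 FPKM without it. The ratios of the means were 6.37 in GPD1 cells and 9.80 in vector cells, the largest of the 10 genes after NR1D1. With metformin PER1 fell 1.54-fold in GPD1 cells relative to vector cells (log2 difference -0.58, SE 0.06, limma adjusted p = 6.8e-06). Without metformin the libraries overlapped and the 95% interval of the log2 difference was -0.13 to 0.12 (limma adjusted p = 0.979). The interaction was -0.58 (SE 0.08, limma adjusted p = 0.00019), and -0.37 with upper-quartile factors.

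PER2 (ENSG00000132326, chr2:238244038-238290102, minus strand), whose protein carries much of the repressor function of the PER complex, behaved unlike PER1. It had 5.25, 5.39 and 5.25 FPKM in GPD1 cells with metformin, against 5.68, 5.94 and 5.21 FPKM in GPD1 cells without it, and these values overlapped. Vector libraries had 6.70, 6.10 and 5.49 FPKM with metformin, against 3.74, 3.77 and 4.19 FPKM without it. Without metformin PER2 was the 1 gene of the 10 called higher in GPD1 cells, by 1.44-fold over vector cells (log2 difference 0.43, SE 0.07, limma adjusted p = 0.00114). PER3, CRY1, CRY2, ARNTL and BHLHE40 also stood higher there, and NR1D1 lower, with no overlap of libraries, but all of these missed the threshold. How many of all tested genes had no overlap there was not computed, so nothing is read from it. With metformin the GPD1 libraries lay below the vector libraries for PER2, but the difference of -0.17 missed the threshold (95% interval -0.32 to -0.02, limma adjusted p = 0.0521). It passed without replicate 3 of the metformin-treated vector group (adjusted p = 0.0116) and without replicate 3 of the untreated GPD1 group (adjusted p = 0.0496). It also passed with totals that leave out mitochondrial genes (adjusted p = 0.0274). Its sign turned with upper-quartile factors, to 0.039, and its limma adjusted p ran from 0.0116 to 0.61 over all alternatives tried. The metformin difference in GPD1 cells, -0.07 on the log2 scale, turned to 0.34 with upper-quartile factors. The interaction was -0.60 (SE 0.10, limma adjusted p = 0.00051). PER1 stood at 1.91 times the level of PER2 in GPD1 cells with metformin and 0.284 times in GPD1 cells without it, and at 2.58 times in vector cells with metformin and 0.410 times in vector cells without it.

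PER3 (ENSG00000049246, chr1:7784320-7845177, plus strand), the least essential period gene in mice, was low in all groups. Its level was between 1.31 and 1.45 FPKM in GPD1 cells with metformin and between 1.49 and 1.81 FPKM in GPD1 cells without it, and between 1.58 and 2.18 FPKM in vector cells with metformin and 1.30 and 1.32 FPKM in vector cells without it. With metformin it fell 1.38-fold in GPD1 cells relative to vector cells (log2 difference -0.28, SE 0.08, limma adjusted p = 0.00978), a call that was lost with upper-quartile factors (-0.14, limma adjusted p = 0.169). The interaction was -0.49 (SE 0.11, limma adjusted p = 0.00413). Without metformin the limma adjusted p was 0.0806, and it was 0.0392 or 0.0464 without replicate 1 or replicate 3 of the metformin-treated vector group, whose spread enters the fit. Over all alternatives tried, it ran from 0.0392 to 0.22. The metformin difference in GPD1 cells, -0.17 on the log2 scale, turned to 0.12 with upper-quartile factors. PER3 shares 868 exon bases, 10.7% of its exon length, with UTS2 on the opposite strand, which was listed at 0 in every library. It shares 482 exon bases, 5.95%, with the opposite-strand gene Z98884.1, which averaged 1.20 FPKM in GPD1 cells with metformin and 0.398 FPKM in GPD1 cells without it, and 1.68 FPKM in vector cells with metformin and 0.495 FPKM in vector cells without it. The part of these shared reads in the values of PER3 was not tested.

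CRY1 (ENSG00000008405, chr12:106991364-107093829, minus strand) encodes the strongest direct repressor of the CLOCK and ARNTL pair. It had 4.82, 4.78 and 3.89 FPKM in GPD1 cells with metformin, against 5.90, 5.37 and 5.24 FPKM in GPD1 cells without it. For vector cells the values were 8.65, 8.88 and 9.87 FPKM with metformin, against 5.03, 4.98 and 4.78 FPKM without it. The vector libraries with metformin stood above all other libraries. With metformin CRY1 fell 2.03-fold in GPD1 cells relative to vector cells (log2 difference -0.89, SE 0.07, limma adjusted p = 2.4e-06). Its interaction was the most negative of the 10 genes at -1.02 (SE 0.11, 95% interval -1.25 to -0.78, limma adjusted p = 2.9e-05). Without metformin the 95% interval of the GPD1 difference was -0.03 to 0.30 (limma adjusted p = 0.251). The lower value with metformin in GPD1 cells, -0.25 on the log2 scale, turned to 0.033 with median-ratio factors and 0.15 with upper-quartile factors.

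CRY2 (ENSG00000121671, chr11:45847118-45883248, plus strand), the second cryptochrome repressor, had 2.15, 2.12 and 2.31 FPKM in GPD1 cells with metformin, against 1.56, 1.51 and 1.61 FPKM in GPD1 cells without it. Vector cells had 4.28, 3.79 and 3.26 FPKM with metformin, against 1.30, 1.41 and 1.18 FPKM without it. Each metformin group stood above its untreated group with no overlap, and the ratios of the means were 1.41 in GPD1 cells and 2.91 in vector cells. With metformin CRY2 fell 1.72-fold in GPD1 cells relative to vector cells (log2 difference -0.58, SE 0.08, limma adjusted p = 6.7e-05), and the interaction was -0.73 (SE 0.11, limma adjusted p = 0.00028). Without metformin the 95% interval was -0.01 to 0.33 (limma adjusted p = 0.177). CRY1 exceeded CRY2 in every group, by 2.06-fold in GPD1 cells with metformin and 3.53-fold in GPD1 cells without it, and by 2.46-fold in vector cells with metformin and 3.82-fold in vector cells without it.

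BHLHE40 (ENSG00000134107, chr3:4979116-4985323, plus strand), the E-box repressor DEC1, was the most abundant of the 10 in GPD1 cells with metformin and in both untreated groups. It had 130.2, 129.9 and 128.2 FPKM in GPD1 cells with metformin, against 38.2, 35.9 and 36.3 FPKM in GPD1 cells without it. In vector cells it had 80.9, 89.8 and 103.5 FPKM with metformin, against 33.2, 32.8 and 35.5 FPKM without it. BHLHE40 was the 1 member that rose in GPD1 cells relative to vector cells with metformin, by 1.42-fold (log2 difference 0.50, SE 0.07, limma adjusted p = 0.00016), and the 1 member with a positive interaction past the threshold (0.39, SE 0.11, limma adjusted p = 0.012; 0.60 with upper-quartile factors). Without metformin the 95% interval was -0.05 to 0.28 (limma adjusted p = 0.298). In vector cells with metformin NR1D1 and BHLHE40 had means of 98.1 ± 6.75 and 91.4 ± 11.4 FPKM, which do not differ beyond their spread.

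The activators were of low abundance. ARNTL (ENSG00000133794, chr11:13276652-13387266, plus strand) was between 2.01 and 2.30 FPKM in GPD1 cells with metformin and between 2.38 and 2.61 FPKM in GPD1 cells without it, and between 1.96 and 2.58 FPKM in vector cells with metformin and 1.89 and 2.13 FPKM in vector cells without it. Its group means stayed between 1.98 and 2.48 FPKM while those of NR1D1, its repressor, stayed between 6.87 and 98.1 FPKM. With metformin the log2 difference between GPD1 and vector cells was -0.04 (95% interval -0.21 to 0.13, limma adjusted p = 0.703), with the opposite sign under median-ratio and upper-quartile factors. Without metformin it was 0.22 (95% interval 0.06 to 0.39, limma adjusted p = 0.0612), and it passed without replicate 1 of the metformin-treated vector group (adjusted p = 0.0204) and with upper-quartile factors (adjusted p = 0.0425). Over all alternatives tried, this limma adjusted p ran from 0.0204 to 0.168. The interaction of -0.26 missed the threshold (limma adjusted p = 0.0708) and passed without replicate 2 of the metformin-treated vector group (adjusted p = 0.0388). Its limma adjusted p ran from 0.0242 to 0.437 over the alternatives. The metformin difference was -0.16 on the log2 scale in GPD1 cells, or 0.18 with upper-quartile factors, and 0.10 in vector cells, or -0.14 with totals that leave out mitochondrial genes.

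CLOCK (ENSG00000134852, chr4:55427903-55547138, minus strand), the histone acetyltransferase partner of ARNTL, was lower with metformin in both cell populations. It had 0.476, 0.498 and 0.507 FPKM in GPD1 cells with metformin, against 1.26, 1.36 and 1.28 FPKM in GPD1 cells without it. In vector cells it had 0.783, 0.718 and 0.789 FPKM with metformin, against 1.83, 2.099 and 1.75 FPKM without it. The metformin groups stood below their untreated groups, 2.63-fold in GPD1 cells and 2.48-fold in vector cells, and no groups overlapped. CLOCK fell in GPD1 cells relative to vector cells both with metformin (1.55-fold, log2 difference -0.24, SE 0.06, limma adjusted p = 0.00548) and without it (1.46-fold, log2 difference -0.33, SE 0.06, limma adjusted p = 0.00287). The interaction was 0.09 (95% interval -0.10 to 0.28, limma adjusted p = 0.415). CLOCK reached the mean of 1 FPKM needed for a test only through its untreated groups. Its GPD1 comparison with metformin is between means of 0.494 FPKM in GPD1 cells and 0.763 FPKM in vector cells. Both lie below that limit, so no support is drawn from that call. At these levels the pseudocount of 1 makes the log2 differences smaller than the folds of the means. CLOCK also rested on the fewest reads, from 82 per library, where BHLHE40 reached 8611. Short opposite-strand exon overlaps were 76 bases of CLOCK with TMEM165 and 27 with AC024243.1, 188 bases of PER2 with AC012485.1, 94 of CRY1 with AC078929.1 and 4 of BHLHE40 with BHLHE40-AS1, at most 2.73% of the clock gene's exon length.

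A wider list of 38 further clock genes placed these results among partners and outputs. It was chosen from knowledge of the pathway, but with earlier results of these data known. Of the 38 genes 37 were in the table and 29 were tested. With metformin 6 of 29 were higher and 16 of 29 lower in GPD1 cells than in vector cells, with a median log2 difference of -0.22, beside the 25.0% higher and 35.0% lower and the median of -0.05 over all tested genes. Upper-quartile factors brought that split to 9 higher and 10 lower, against 5078 higher and 3092 lower of all 12607 tested genes. Without metformin 6 of 29 were higher and 2 of 29 lower in GPD1 cells, beside 9.99% and 11.3% of all tested genes. That is 8 in all, but 5 in all without replicate 2 of the untreated GPD1 group and likewise without replicate 3 of the untreated vector group. The interaction was higher for 4 and lower for 16, beside 19.1% and 26.8% of all tested genes, with a median of -0.39 against -0.04 over all tested genes.

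Among the D-box factors, DBP, which E-boxes drive in the mammalian clock, had 8.63 ± 0.189 FPKM in GPD1 cells with metformin and 2.36 ± 0.341 FPKM in GPD1 cells without it. It had 16.6 ± 0.640 FPKM in vector cells with metformin and 1.65 ± 0.0564 FPKM in vector cells without it (SD, n = 3 each). With metformin DBP fell in GPD1 cells relative to vector cells (log2 difference -0.87, limma adjusted p = 1.0e-06) and it rose without metformin (0.34, limma adjusted p = 0.00397), with an interaction of -1.21 (limma adjusted p = 3.8e-06). It rose with metformin in both, by 1.52 on the log2 scale in GPD1 cells and 2.73 in vector cells. TEF, of the same family, averaged 1.66 FPKM in GPD1 cells with metformin and 2.49 FPKM in vector cells with metformin (log2 difference -0.38, limma adjusted p = 0.00165). NFIL3, the D-box repressor, averaged 47.2 FPKM in GPD1 cells and 54.3 ± 13.1 FPKM in vector cells with metformin, against 10.9 and 10.6 FPKM without it. It rose with metformin by 2.02 and 2.23 on the log2 scale, while its GPD1 difference with metformin was -0.17 (limma adjusted p = 0.296), or -0.33 without replicate 1 of the metformin-treated vector group (adjusted p = 0.0235).

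**Figure D4:**
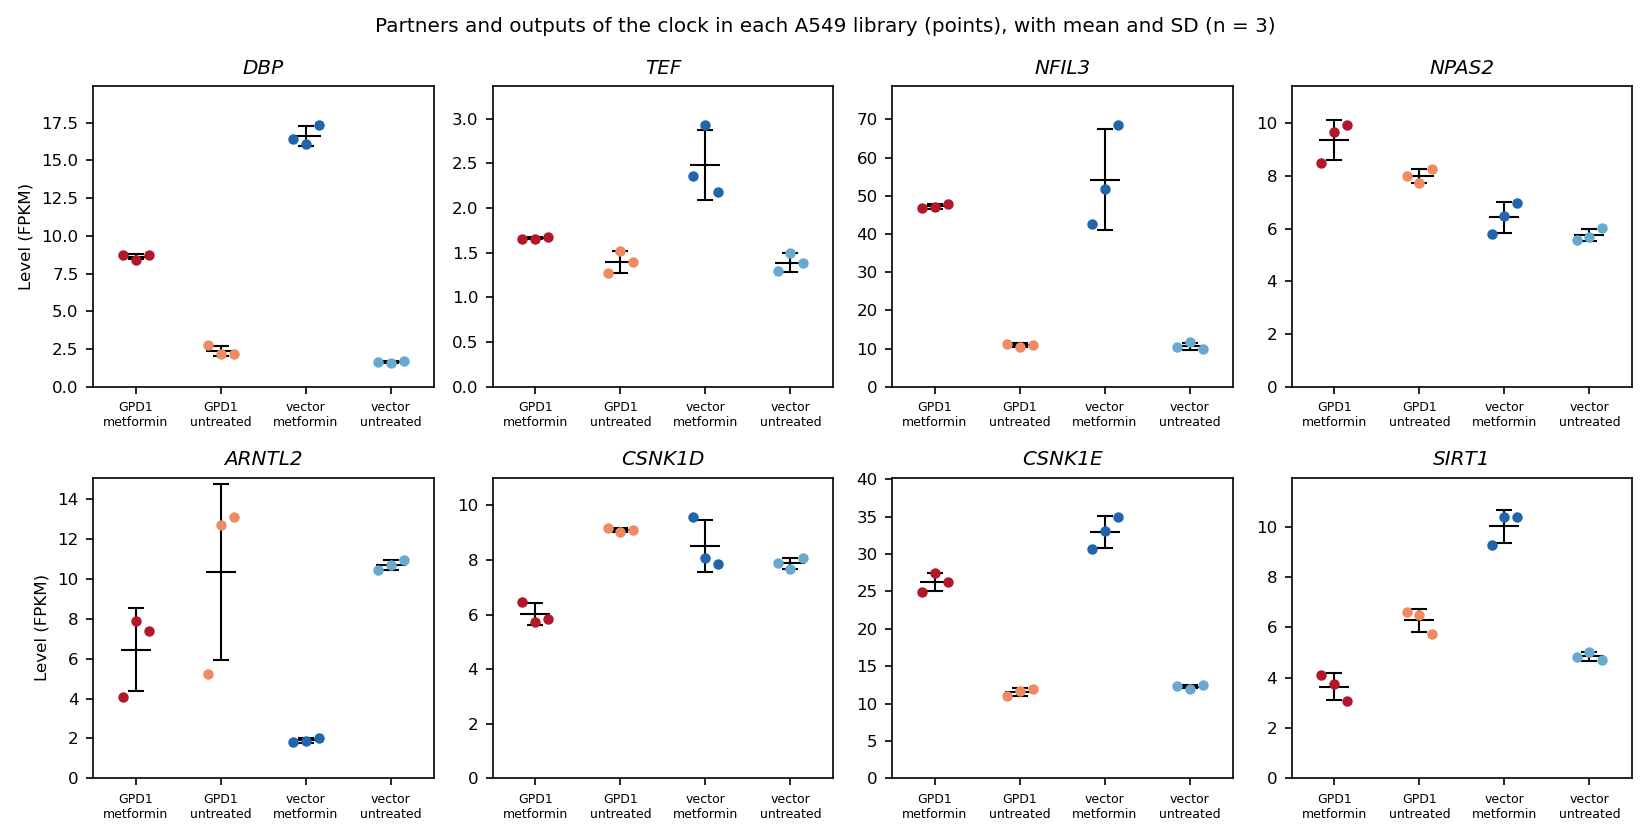
Level in FPKM of 8 partners and outputs of the clock in every A549 library, with the mean and SD of 3 libraries per group. DBP is highest in vector cells with metformin at 16.6 FPKM, ARNTL2 is lowest there at 1.90 FPKM, and 1 library stands apart for ARNTL2 in each GPD1 group.

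The relatives of the activators differed from CLOCK and ARNTL. NPAS2, which can replace CLOCK, rose in GPD1 cells relative to vector cells with metformin (log2 difference 0.48, limma adjusted p = 0.00013) and without it (0.41, limma adjusted p = 0.00166). ARNTL2, the relative of ARNTL, had 4.07, 7.89 and 7.37 FPKM in GPD1 cells with metformin, against 5.24, 12.7 and 13.1 FPKM in GPD1 cells without it. In vector cells it had 1.82, 1.85 and 2.03 FPKM with metformin, against 10.4, 10.7 and 10.9 FPKM without it. It fell with metformin in vector cells (log2 difference -2.01, limma adjusted p = 7.9e-05), and with metformin it was higher in GPD1 cells than in vector cells (1.32, limma adjusted p = 0.00246). Replicate 1 was the lowest ARNTL2 library in each GPD1 group, and the difference of -0.56 with metformin in GPD1 cells (limma adjusted p = 0.104) became -0.94 without the untreated one (adjusted p = 0.0016). RORA, CIART and BHLHE41 had means under 1 FPKM and were not tested.

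Of the casein kinases that phosphorylate PER proteins, CSNK1E rose with metformin by 1.12 on the log2 scale in GPD1 cells and 1.36 in vector cells. CSNK1D was lower in GPD1 cells than in vector cells with metformin (log2 difference -0.44, limma adjusted p = 0.00022), with an interaction of -0.62 (limma adjusted p = 0.00038). With metformin the GPD1 difference of CSNK1E was -0.32 (limma adjusted p = 0.00052), and upper-quartile factors ended that call, with a difference of -0.08.

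NAMPT and SIRT1, which join the clock to NAD, differed in opposite directions between GPD1 and vector cells with metformin. NAMPT, which makes the NAD precursor nicotinamide mononucleotide, averaged 67.2 FPKM in GPD1 cells and 25.0 FPKM in vector cells with metformin, and 69.3 FPKM in GPD1 cells and 17.5 FPKM in vector cells without it. It rose in GPD1 cells by 1.39 on the log2 scale with metformin (limma adjusted p = 1.8e-08) and by 1.93 without it (limma adjusted p = 7.0e-09). SIRT1, an NAD-dependent deacetylase that acts on PER2 and ARNTL proteins, averaged 3.64 FPKM in GPD1 cells and 10.0 FPKM in vector cells with metformin. It fell by 1.25 on the log2 scale in GPD1 cells (limma adjusted p = 4.2e-07), with an interaction of -1.56 (limma adjusted p = 3.6e-06). Without metformin SIRT1 averaged 6.28 FPKM in GPD1 cells and 4.84 FPKM in vector cells (log2 difference 0.32, limma adjusted p = 0.0223). That call was lost without replicate 1 or 2 of the untreated GPD1 group (adjusted p = 0.0777 and 0.0735) and without replicate 1 or 3 of the untreated vector group (adjusted p = 0.0613 and 0.0704).

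Further listed genes moved by at least 1 on the log2 scale with metformin. KLF9 and KLF10, zinc-finger factors with clock-driven expression, rose by 1.03 and 1.97 in GPD1 cells and by 1.48 and 1.43 in vector cells. NOCT, the rhythmic phosphatase nocturnin, rose by 1.31 in vector cells. TIMELESS and its partner TIPIN, which in mammals also protect replication forks, fell by 1.12 and 1.24 in GPD1 cells and by 1.42 and 1.66 in vector cells. SFPQ and WDR5, an RNA-binding protein and a chromatin factor found with PER complexes, fell in GPD1 cells by 2.35 and 1.39, and SFPQ fell by 1.63 in vector cells. In all, 8 of 29 rose and 16 of 29 fell in GPD1 cells, and 11 rose and 12 fell in vector cells, with median log2 differences of -0.53 and 0.095, against -0.20 and -0.10 over all tested genes. Of all tested genes 26.1% rose and 48.0% fell in GPD1 cells, and 31.3% rose and 43.3% fell in vector cells. With upper-quartile factors the listed genes gave 12 higher and 10 lower in GPD1 cells and 15 and 10 in vector cells. All tested genes then gave 5804 higher and 3622 lower in GPD1 cells and 5290 and 4125 in vector cells. With totals that leave out mitochondrial genes the listed genes gave 6 and 20 in GPD1 cells and 10 and 15 in vector cells. All tested genes then gave 1768 and 8052 in GPD1 cells and 2479 and 7345 in vector cells.

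To place NR1D1 among other genes, the 4885 protein-coding genes averaging 5 FPKM or more were ranked by how closely their 4 group means of log2(FPKM + 1), each centred on its own mean, matched those of NR1D1. The 5 closest were DDIT3, PIM1, IRAK2, IER3 and HES4, with root mean square differences of 0.18, 0.22, 0.25, 0.26 and 0.31 on the log2 scale over the 4 groups. DDIT3, the stress-response transcription factor CHOP, averaged 15.8 FPKM in GPD1 cells with metformin and 1.41 FPKM in GPD1 cells without it, and 33.9 FPKM in vector cells with metformin and 1.72 FPKM in vector cells without it. PIM1, a survival kinase, averaged 135.3 and 19.7 FPKM in GPD1 cells with and without metformin, and 180.2 and 22.2 FPKM in vector cells with and without it. None of the 5 belongs to the clock genes or to the wider list. This ranking is a description of 4 group means, without a test.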

How the data were processed

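HISAT2 2.1.0, CASAVA 1.8 and edgeR, the last without a version, are named with GRCh38/hg38, per the submitters' processing notes; what program quantified genes, on which annotation, is not given in the sources used here. Values in the deposited table are FPKM as the authors computed them, a unit inferred from the low values, which step in whole reads over exon length within 0.02 for 65.0% to 69.7% of genes of up to 10 steps; they could be RPKM. Exon lengths and overlaps came from GENCODE 29. Limma 3.58.1 (R 4.3.3) was fitted to log2(FPKM + 1) with an intensity trend, as 4 group means over 12 libraries, for the 12607 genes averaging 1 FPKM or more, with Benjamini-Hochberg adjustment over all of them and a threshold of 0.05. A pseudocount of 1 understates folds of low genes. The fit was also run on simulated data in which a small set of genes rose in a single group. Those data held no broad shift between groups, so they do not probe the choice of scaling. Members and lists were chosen with earlier results of these data known. All 10 members were named, with genes sharing their exons, wider-list genes past the threshold with a log2 difference of at least 1, set partners, and the 5 genes nearest NR1D1. Alternatives were 3 other scalings, no filter, a pseudocount of 0.1, only the groups compared, a replicate block, protein-coding genes alone and each library left out; for the wider genes named singly these were added after seeing the data. With FPKM, counting intervals were not computed. Some genes of the wider list are counted with it but are not reported singly here.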

Additional observations from a re-analysis of the deposited data

Results flagged for a closer look

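For 7 of the 9 clock genes other than NR1D1 the change with metformin differed between GPD1 cells and vector cells, by the interaction term of limma with Benjamini-Hochberg adjustment. By the same term 26.8% of all tested genes were lower and 19.1% were higher. The change in GPD1 cells minus that in vector cells was -0.90 for NR1D2, -0.58 for PER1, -0.60 for PER2, -0.49 for PER3, -1.02 for CRY1 and -0.73 for CRY2, and 0.39 for BHLHE40, all on the log2(FPKM + 1) scale. All 7 rest on 3 libraries per group and share the same 12 libraries.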

How the results depend on the processing

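Of the tested values of single members, 207 alternatives kept the direction and the side of the threshold, 6 turned the sign of a value that missed the threshold either way, 9 brought a value past it and 1 lost a call; with each library left out these were 337, 4, 7 and 0. The turns were in ARNTL and PER2 with metformin, PER1 without it and the interaction of CLOCK. The lost call was PER3 with metformin under upper-quartile factors. The metformin differences of NR1D2 and CRY1 in GPD1 cells, -0.23 and -0.25, reversed to 0.038 and 0.033 with median-ratio factors and to 0.15 and 0.15 with upper-quartile factors, and those of PER2, PER3 and ARNTL turned above 0 with both. Among partners, metformin differences reversed from -0.04 for NAMPT in GPD1 cells (0.29 with median-ratio and 0.43 with upper-quartile factors) and, with totals that leave out mitochondrial genes, for NPAS2 (-0.13 against 0.20 in GPD1 cells, -0.17 against 0.13 in vector cells) and CSNK1D (-0.23 against 0.09 in vector cells). The cause was not tested. Of the 10 members, 3 were called between GPD1 and vector cells without metformin. That count was 3 to 5 when a library was left out (5 without replicate 1 of the metformin-treated vector group). The 29 tested genes of the wider list had 8, and 5 to 9 when a library was left out. Of all tested genes 9.99% were called higher and 11.3% lower in that comparison with every library kept. The shares of all tested genes with a library left out are not given here. No pairing by replicate number was seen in the deviations from the group means. The 18 correlations of same-numbered deviations ran from -0.065 to 0.056, and 5 of 12 libraries correlated best with their own number. Such correlations cannot tell whether same-numbered libraries were handled together. With a replicate block 5 members were called between GPD1 and vector cells without metformin. Of all 12607 tested genes 1152 were then called higher and 1222 lower. CLOCK, CRY2 and PER3 had the fewest reads, from 82, 97 and 142 per library.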
